A study of Mesocricetus auratus with 6 samples.

Results

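Cytosolic ribosomal proteins are the protein part of the ribosome that translates messenger RNA in the cytoplasm. They were followed here in the uterus of Syrian golden hamsters (Mesocricetus auratus) at day 5 of pregnancy. The members were the genes named Rpl (large subunit) or Rps (small subunit), together with Rplp0, Rplp2 and Rpsa, that had at least 1 probe set with a single gene symbol. Genes of the Rps6k kinases and pseudogenes were left out. The rule found 48 of the 12393 genes on the array, 26 Rpl and 22 Rps, measured by 100 probe sets. Each gene was represented by its probe set with the highest mean. RefSeq lists 44 of the 48 symbols for the hamster (assembly BCM_Maur_2.0).

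The study measured total RNA on an Affymetrix mouse array. It had 3 arrays of implantation sites, where an embryo had attached, and 3 arrays of interimplantation sites, the uterine wall between embryos. All animals were untreated, no genotype or age is given, and the RNA sets came from 3 animals. The labels leave unsaid whether equally numbered arrays share an animal. Values are log2 signals after RMA (robust multi-array averaging, a joint background correction and normalization of all arrays), so a difference of 1 would be a 2-fold change. The probes were designed on mouse sequence, and mismatches with hamster RNA can lower a signal and shrink a difference. Only 3294 of all genes, but 33 of the 48 members, had a mean above 5.79, the level of the brightest of 27 control probe sets for Bacillus genes, which hamster tissue lacks. The median of these controls was 2.68, so a mean under 5.79 need not mean that a transcript was undetected.

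A ribosome joins a small subunit, which reads the messenger RNA, to a large subunit, which forms the peptide bond. Each subunit is built in the nucleolus from ribosomal RNA and about equal amounts of each protein. The messenger RNAs of these proteins carry a run of pyrimidines at their start (the TOP element), through which the mTOR pathway adjusts their translation to growth signals. In the uterus, stromal cells around the attached embryo proliferate and grow into decidua.

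Arrays of the whole series separated by site on the first principal component (38.3% of the variance). The component after it (24.2%) set interimplantation array 1, at -20.7, apart from the other interimplantation arrays at 11.6 and 7.67. The hybridisation controls, which are added to each hybridisation and do not come from the tissue, were at 6.64 ± 0.17 on the implantation and 7.03 ± 0.27 on the interimplantation arrays (SD, n = 3), with overlap. Of 12 listed markers of stroma and decidua, 6 had means above the brightest Bacillus control, among them Hoxa11 (7.34), Nr2f2 (7.05) and Hoxa10 (6.14). Esr1 (4.93) and Pgr (4.46) were among those that did not. A tissue sample holds many cell types, and fewer cells of a type cannot be told apart from less RNA per cell.

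The comparison asked whether transcripts of the ribosome's own proteins differ between the attachment site and the uterus between sites. By the test used, 1 of the 48 did. With limma and Benjamini-Hochberg adjustment over all 22626 probe sets, 0 of 26 Rpl genes were higher and 0 lower (adjusted p under 0.05), and of 22 Rps genes 0 were higher and 1, Rps19, was lower. Over all genes, 1.36% were called higher and 1.18% lower. Among the 3294 genes above the controls, the shares were 3.49% and 2.61%. Before adjustment, 2 Rpl genes were higher at a p under 0.05 and 4 lower, as were 1 and 4 Rps genes, where 6.14% of all genes were higher and 8.67% lower (10.4% and 10.8% of those above the controls).

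The differences, given throughout as implantation minus interimplantation, were small. Their median absolute size was 0.097, beside 0.090 over all genes. The median of the Rpl genes was -0.050 (from -0.35 to 0.27), with 16 of 26 negative. The median of the Rps genes was 0.012 (from -0.55 to 0.23), with 10 of 22 negative. The median of all genes was -0.020, and 56.2% of them were negative. The 95% interval of 46 of the 48 members lay wholly within a 1.5-fold change in either direction, and all 48 lay within a 2-fold change. The exceptions at 1.5-fold were Rpl37 and Rps19, at the lower end. Over all genes, the intervals of 11827 of 12393 lay within a 1.5-fold and of 12313 within a 2-fold change. These bounds hold on the deposited scale, on which the bulk of genes is centred near 0. Scaling every array to the hybridisation controls shifts all differences by the same amount, as the controls themselves differed by -0.397. The medians of Rpl, Rps and all genes then moved together to 0.35, 0.41 and 0.38, with 0 members called. With the level of these controls as a covariate they moved apart, to -0.17 for Rpl (7 of 26 positive), -0.14 for Rps (5 of 22 positive) and -0.029 for all genes, again with 0 members called.

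**Figure D1:**
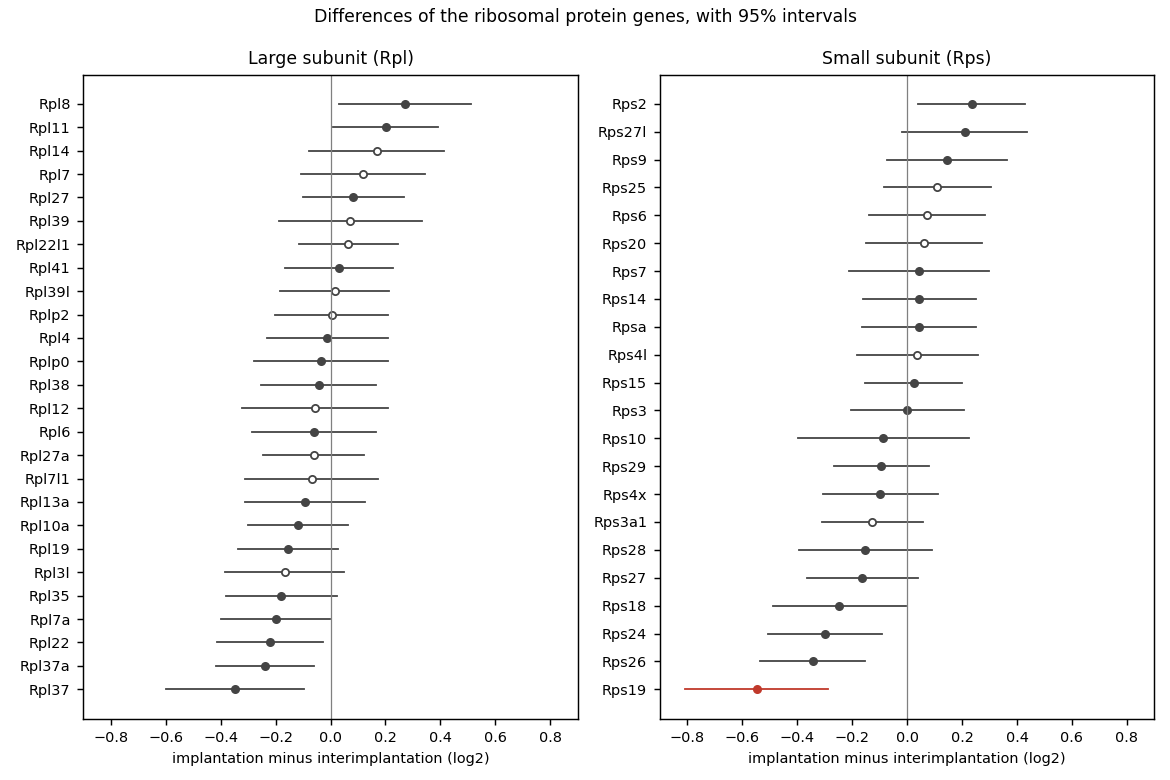
Difference of each ribosomal protein gene between implantation and interimplantation sites on the log2 scale (x axis), large subunit on the left and small subunit on the right, with 95% intervals from the limma fit; filled points have a mean above the brightest Bacillus control and open points do not. Rps19, in red at -0.55, is the member with an adjusted p under 0.05, and most intervals cross 0.

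Rps19, a protein of the head of the small subunit whose loss of function in humans can cause Diamond-Blackfan anaemia, had the largest difference. It was at 8.79, 8.69 and 8.67 on implantation arrays 1, 2 and 3 and at 8.98, 9.32 and 9.50 on interimplantation arrays 1, 2 and 3. All implantation arrays were below all interimplantation arrays, and interimplantation array 1 was the nearest to them. The means were 8.72 ± 0.066 and 9.27 ± 0.26 (SD, n = 3), a difference of -0.55 (SE 0.12, limma adjusted p = 0.0352), or 1.46-fold lower. The call was lost when implantation array 1, 2 or 3 was left out (adjusted p of 0.104, 0.125 and 0.149, in that order) or interimplantation array 2 or 3 (adjusted p of 0.111 and 0.117). Without interimplantation array 1 the difference was -0.69 (adjusted p = 0.00154). Scaled to the hybridisation controls, Rps19 was at -0.15 (adjusted p = 0.510), and with their level as a covariate at -0.69 (adjusted p = 0.0910), with no call in either. Rps19 had a single probe set, of a type that can match several transcripts.

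Some markers of other cell types were also lower at the implantation site. Over all genes, 1.36% were called higher and 1.18% lower (6.14% and 8.67% by an unadjusted p under 0.05). Of 15 measured markers of the uterine epithelium (16 listed), 3 fell (Cldn7 at -0.78, Sox17 at -0.53 and Wnt7b at -0.50) and 0 rose. The other probe set of Sox17 was at 0.072. The mean log2 level of the list ran from 5.16 to 5.25 on the implantation and from 5.37 to 5.46 on the interimplantation arrays. Of 10 smooth muscle markers 2 fell (Actg2 at -1.74 and Tagln at -1.26) and 0 rose, with mean levels of 5.29 to 5.54 and 5.77 to 6.01. Of 12 markers of stroma and decidua 1 rose (Wnt4, 0.63), but 7 were negative and the median was -0.088. Of 8 leukocyte markers 1 fell (Cd74, -0.47), with 4 positive and a median of 0.0016. Of 7 endothelial, 8 trophoblast and 2 erythroid markers, limma called 0, with 0 higher and 2 lower by an unadjusted p under 0.05. The part of other cell types in the difference of Rps19 was not tested.

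Rps26, which lines the exit of the messenger RNA channel on the small subunit, came nearest to a further call. It was at 8.95, 8.97 and 8.88 at the implantation site and at 9.14, 9.38 and 9.31 between sites, with no overlap. The difference was -0.34 (SE 0.088, limma adjusted p = 0.0710). Leaving out interimplantation array 1 gave -0.41 and a call (adjusted p = 0.0253). Calls were also made after a repeated quantile normalization (adjusted p = 0.0177), after weighting of arrays (adjusted p = 0.0321), and after probe sets below the median level were dropped (adjusted p = 0.0489). With scaling to the hybridisation controls it was at 0.054 and had turned sign.

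Rps24, a protein of the body of the small subunit whose messenger RNA is alternatively spliced near its end, had 6 probe sets that did not move alike. The probe set of highest mean was at 9.63, 9.95 and 9.74 at the implantation site and at 10.09, 10.11 and 10.02 between sites, a difference of -0.30 (SE 0.096, adjusted p = 0.158). A dimmer one was at 8.36, 8.34 and 8.47 against 9.05, 8.88 and 8.97, a difference of -0.57 (SE 0.086, limma adjusted p = 0.00417), or 1.49-fold lower, and was called although the gene's representative was not. Another had a mean of 5.74, below the brightest Bacillus control. It ran the opposite way, at 5.81, 5.84 and 5.91 against 5.67, 5.70 and 5.52, a difference of 0.23 (adjusted p = 0.244). In both of these the groups did not overlap, in opposite directions. Within each array, the level of the latter minus that of the former was -2.55, -2.50 and -2.56 at the implantation site and -3.38, -3.17 and -3.45 between sites. This pair was chosen after its values were seen, and the gap was not tested. The other 3 probe sets of Rps24 were at -0.24, -0.12 and 0.047. Both the called probe set and that of highest mean are of a type that can match several transcripts. The called probe set kept its call without any single array (adjusted p from 0.00670 to 0.0329) but not with the control scaling (-0.18, adjusted p = 0.444) or with the hybridisation controls as a covariate (-0.44, adjusted p = 0.110).

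**Figure D2:**
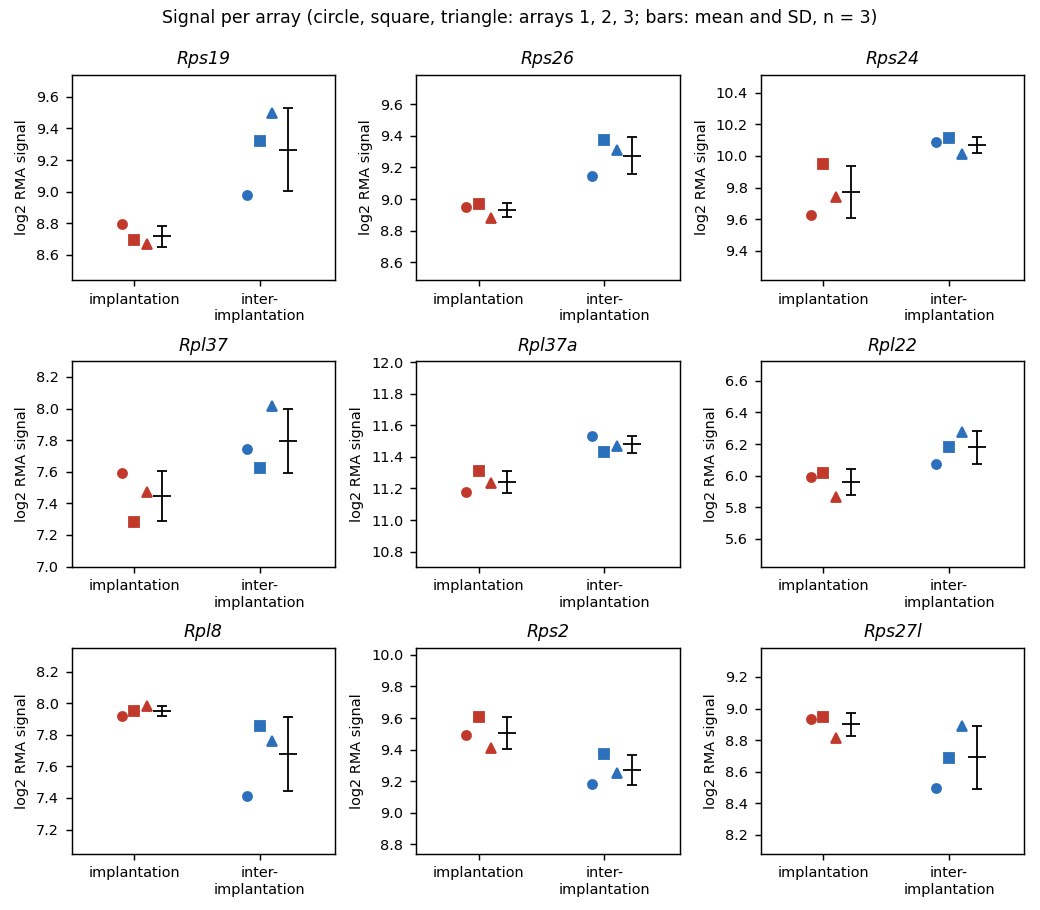
Log2 RMA signal (y axis, each panel spanning 1.3 log2 units) of 9 members on the 3 implantation arrays (red) and the 3 interimplantation arrays (blue), with circle, square and triangle for arrays 1, 2 and 3, and the mean and SD beside them. Rps19, Rps26, Rps24, Rpl37, Rpl37a and Rpl22 were lower on every implantation array than on any interimplantation array, Rpl8 and Rps2 were higher, and Rps27l overlapped.

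Among the other small-subunit genes, paralogs left aside, Rps2, at the entry of the messenger RNA channel, stood highest. It was at 9.49, 9.61 and 9.41 at the implantation site and at 9.18, 9.37 and 9.25 between sites. The groups did not overlap, and the difference was 0.23 (SE 0.090, adjusted p = 0.251). Rps9 (0.14), Rps25 (0.11) and Rps6 (0.071), the target of the S6 kinases, followed with overlapping groups. Rps25 and Rps6 had means below the brightest Bacillus control. The other 2 probe sets of Rps9 were at -0.13 and -0.031, and the mean of its probe sets gave -0.0065. Without interimplantation array 1, Rps9 was at 0.087 and Rps25 at 0.052. Rps18, in the head of the subunit, was at -0.25 (adjusted p = 0.353) by its brightest probe set. Of its other 5, those at -0.40 and -0.34 came closer to a call (adjusted p = 0.0606 and 0.0912), and the remaining ones were at -0.20, -0.00099 and 0.076.

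By position on the small subunit, 9 of 14 listed head proteins were measured, with a median of -0.086 and a range from -0.55 (Rps19) to 0.11 (Rps25). Of 18 listed symbols of the body and platform 11 were measured, with a median of 0.042, from -0.34 (Rps26) to 0.23 (Rps2).

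On the large subunit, the lowest differences were those of the zinc-binding proteins Rpl37 and Rpl37a. Rpl37 was at 7.59, 7.28 and 7.47 at the implantation site and at 7.75, 7.62 and 8.02 between sites, a difference of -0.35 (SE 0.11, limma adjusted p = 0.172). Rpl37a was at 11.18, 11.31 and 11.23 against 11.54, 11.43 and 11.47, a difference of -0.24 (SE 0.082, adjusted p = 0.190). In both, every implantation array was below every interimplantation array, in Rpl37 by a margin smaller than the spread within a group. The other 2 probe sets of Rpl37a were at -0.32 and -0.17, again without overlap between groups. With repeated quantile normalization Rpl37a was at -0.45 and was called (adjusted p = 0.0278).

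Rpl22, an RNA-binding protein at the rim of the exit tunnel, was at 5.99, 6.02 and 5.87 against 6.07, 6.18 and 6.28. The groups did not overlap, and the difference was -0.22 (SE 0.088, adjusted p = 0.280), with its other probe set at -0.21. Rpl7a (-0.20) and Rpl35 (-0.18), the latter at the rim of the exit tunnel, followed with overlapping groups. The 5 measured proteins of the exit tunnel and its rim (of 9 listed) had a median of -0.16, from -0.22 (Rpl22) to 0.072 (Rpl39). Rpl39 had a mean below the brightest Bacillus control.

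Rpl8, which reaches towards the peptidyl transferase centre, stood highest of all members. It was at 7.92, 7.95 and 7.98 at the implantation site and at 7.41, 7.86 and 7.76 between sites, a difference of 0.27 (SE 0.11, limma adjusted p = 0.284). The groups did not overlap, but interimplantation array 1 was far below the others. Without that array the difference was 0.14 (adjusted p = 0.490). Rpl10a, of the mobile arm beside the tRNA exit site, was at -0.12. Rpl11, which binds the smallest ribosomal RNA and, when free, the p53 regulator Mdm2, was at 8.08, 8.11 and 8.27 against 7.90, 7.92 and 8.03, a difference of 0.20 (SE 0.087, adjusted p = 0.327), again without overlap. Rpl14 (0.17), Rpl7 (0.12) and Rpl27 (0.083), structural proteins of the large subunit, were next, with overlapping groups. The stalk proteins, which recruit the translation factors, lay close to 0, with Rplp2 at 0.0038, Rplp0 at -0.034 and Rpl12 at -0.057. Rpl14, Rpl7, Rplp2 and Rpl12 had means below the brightest Bacillus control. Over all 48 members, groups did not overlap with implantation above in 3 genes and below in 8. Over all genes this held for 8.02% and 12.1%, and over genes above the controls for 11.9% and 14.8%.

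Some members are paralogs or share only the name. Rps27l, a paralog of Rps27 that responds to p53, was at 8.93, 8.95 and 8.82 against 8.49, 8.68 and 8.89, a difference of 0.21 (SE 0.10, adjusted p = 0.411) with overlapping groups. Without interimplantation array 1 it was at 0.11 (adjusted p = 0.648). Its other 2 probe sets were at 0.52, with no overlap (adjusted p = 0.109), and at 0.24, so all 3 were positive. Rps27 itself, measured by 1 probe set, was at -0.16 (adjusted p = 0.480). The contrast between the paralogs was not tested, and the probe sets of highest mean of Rps27l are of a type that can match related transcripts. Rpl22l1 (0.065), the paralog of Rpl22, Rpl39l (0.014), Rps4l (0.037) and Rpl3l (-0.17), the paralog of Rpl3 in striated muscle, were all below the brightest Bacillus control. So was Rpl7l1 (-0.068), which matches the name rule but is a factor of nucleolar ribosome assembly and not a subunit protein.

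Differences among the dimmer members were small. The 10 Rpl genes not above the controls ran from -0.17 to 0.17 with a median of 0.0091, and the 5 such Rps genes from -0.13 to 0.11 with a median of 0.062. The 16 Rpl genes above the controls had a median of -0.077 with 12 negative. The 17 Rps genes above them had a median of -0.086 with 9 negative. All 3294 genes above the controls had a median of -0.021.

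Probe sets of the same gene often disagreed in sign. Of the 48 members 23 had more than 1 probe set. All probe sets were negative in 6 of these (among them Rpl22, Rpl37a and Rps28), all positive in 3 (Rpl27, Rps20 and Rps27l), and of both signs in 14. The widest spreads were those of Rps24, from -0.57 to 0.23, and Rps18, from -0.40 to 0.076. Of the 46 Rpl probe sets 0 were called, with 2 higher and 7 lower by an unadjusted p under 0.05. Of the 54 Rps probe sets 0 were higher and 2 lower, where 1.26% and 1.05% of all probe sets were called. At an unadjusted p under 0.05 they numbered 4 higher and 9 lower, where 5.63% and 8.35% of all probe sets passed. Groups did not overlap in 7 of the 100 probe sets with implantation above and in 19 with it below, where 7.62% and 11.7% of all probe sets did so. In 31 of the 48 members the probe set of highest mean was of a type that can match several transcripts.

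**Figure D3:**
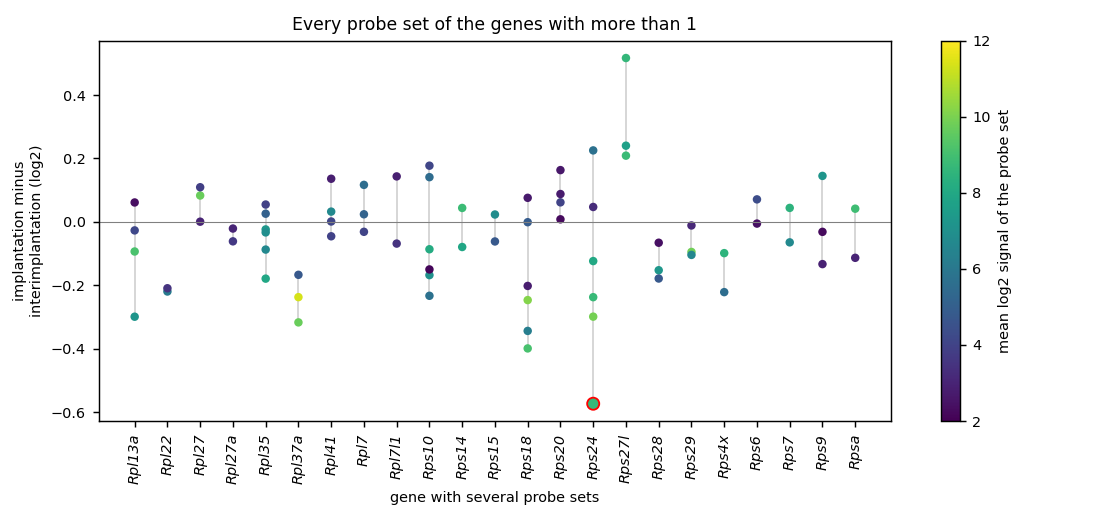
Difference (log2, y axis) of every probe set of the 23 members with more than 1, coloured by the mean log2 signal of the probe set; a red ring marks an adjusted p under 0.05. The probe sets of Rps24 run from -0.57, the ringed one, to 0.23, while those of Rpl37a and Rpl22 are all negative and those of Rps27l all positive.

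Ribosomal protein genes have many processed pseudogenes, and 91 further probe sets carried the symbol of 1 Rpl or Rps gene together with pseudogenes or predicted genes only. Among the genes they carried, 25 are not among the 48, and none is named here because the annotation gives several symbols. Of these 91 probe sets limma called 0, and before adjustment 2 passed a p of 0.05 as higher and 18 as lower, where 5.63% and 8.35% of all probe sets did. Their median was -0.099 and 71 were negative, or 78.0%, where 56.5% of all probe sets were negative. The number of negative ones was 77 without interimplantation array 1 and 62 to 68 without any other array. With these probe sets admitted, also as representatives of genes among the 48 where they were brighter, the median of the Rps genes moved from 0.012 to -0.10 and that of the Rpl genes from -0.050 to -0.099, with 45 Rpl and 28 Rps genes measured.

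The Rpl and Rps genes shared a pattern over the arrays that did not follow the site. Taking for each gene the deviation from its own mean over the 6 arrays, the median of the Rpl genes was -0.031, 0.014 and -0.036 on implantation arrays 1, 2 and 3 and -0.10, 0.069 and 0.11 on interimplantation arrays 1, 2 and 3. That of the Rps genes was -0.026, 0.062 and -0.040, and then -0.079, 0.063 and 0.094. Both families were lowest on interimplantation array 1 and highest on interimplantation array 3, so the interimplantation arrays spanned the whole range of the implantation arrays. Over all genes above the controls the same median stayed between -0.019 and 0.021. Without interimplantation array 1 the medians of the differences were -0.10 for Rpl and -0.072 for Rps, with 20 of 26 and 15 of 22 negative, and 2 Rps genes were called lower (Rps19 and Rps26). Interimplantation array 1 also had the highest level of the hybridisation controls (7.27). The log2 signal of Gapdh at its 3′ end minus that at its 5′ end, a sign of RNA quality, was -0.55, -0.55 and -0.46 on implantation arrays 1, 2 and 3 and -0.26, -0.71 and -0.73 on interimplantation arrays 1, 2 and 3. It was highest where the Rpl and Rps medians were lowest and lowest where they were highest, and the arrays between ran in the same reversed order, with implantation arrays 1 and 2 level with each other. The same measure for Actb did not follow this order. It was 0.15, 0.39 and 0.49 on implantation arrays 1, 2 and 3 and 0.53, 0.58 and 0.50 on interimplantation arrays 1, 2 and 3. The part of these measures in the pattern was not tested.

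**Figure D4:**
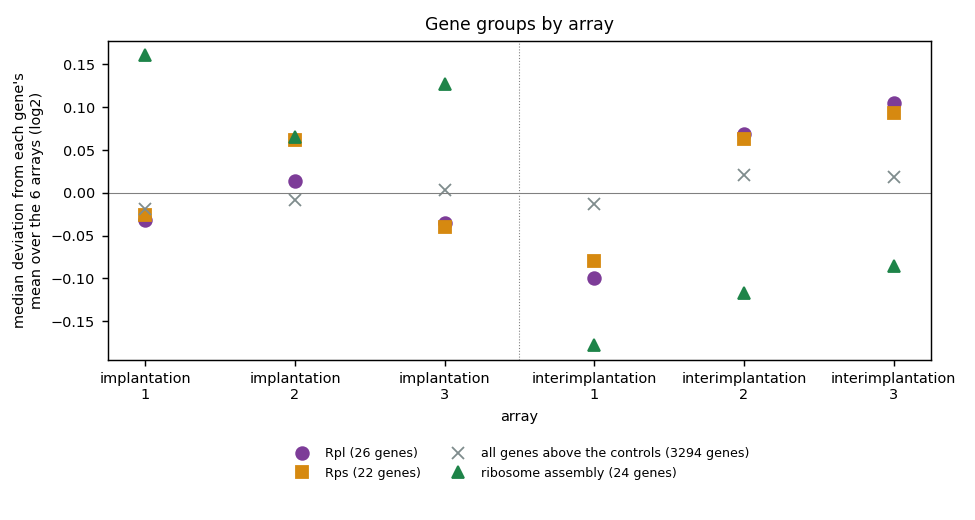
Median deviation of a gene from its own mean over the 6 arrays (log2, y axis) for Rpl genes, Rps genes, all genes above the brightest Bacillus control and the ribosome assembly list, by array (x axis). Rpl and Rps genes lie together, lowest on interimplantation array 1 (-0.10 and -0.079) and highest on interimplantation array 3 (0.11 and 0.094), while the assembly genes are above 0 on all 3 implantation arrays and below 0 on the others.

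Other genes of the translation machinery were described from fixed lists. Of the ribosomal components that the name rule misses, Fau, which encodes a ubiquitin-like fusion with a small-subunit protein, was the one measured. It was at 9.28, 9.13 and 9.25 against 9.20, 9.29 and 9.59, a difference of -0.14 with overlap (adjusted p = 0.617). Of 11 other messenger RNAs with a TOP element 0 were called. By an unadjusted p under 0.05, 1 was higher and 3 lower, where 6.14% and 8.67% of all genes were. The median of the 11 was -0.12, beside -0.020 over all genes. The lowest was Tpt1, the translationally controlled tumour protein, at 9.42, 9.75 and 9.40 against 9.82, 9.94 and 10.2, a difference of -0.46 (SE 0.12, limma adjusted p = 0.0752). The highest was Pabpc1, the poly(A)-binding protein, at 0.24 (adjusted p = 0.251).

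Of 10 measured genes of elongation and termination (11 listed) 1 rose and 0 fell, where 1.36% and 1.18% of all genes did. Their median was -0.082. Eif5a, a factor that relieves stalled ribosomes, was at 9.78, 9.78 and 9.74 at the implantation site and at 8.63, 8.92 and 8.97 between sites, a difference of 0.93 (SE 0.098, adjusted p = 7.09e-04), or 1.90-fold higher. Its other probe set was at 0.88, and the call held in the 14 alternatives that measured it. Gspt1, a release factor, was at 0.39 (adjusted p = 0.0509) by its brightest probe set, and its 3 probe sets ran from -0.053 to 0.53, with 1 called. Eef1a1, the factor that brings aminoacyl-tRNA to the ribosome, was at -0.18 (adjusted p = 0.452). Of 13 measured genes that control ribosomal protein and ribosomal RNA synthesis (15 listed) 0 were called. By an unadjusted p under 0.05, which 6.14% of all genes passed as higher and 8.67% as lower, 3 were higher and 0 lower. These were the RNA polymerase I subunit Polr1b at 0.31 (adjusted p = 0.0873), Myc at 0.24 (adjusted p = 0.182) and Rheb, the activator of mTOR, at 0.28 (adjusted p = 0.273).

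Genes that assemble the ribosome had mostly positive differences at the implantation site. Of 24 measured members of that list (28 listed) 5 rose and 0 fell, 22 were positive, and the median was 0.21. Only 7 of the 24 had means above the brightest Bacillus control. Over all genes, 1.36% were called higher, 1.18% lower and 43.8% were positive. Nop58, a core protein of box C/D small nucleolar particles, was at 5.30, 5.49 and 5.28 against 4.41, 4.31 and 4.14, a difference of 1.07 (SE 0.098, limma adjusted p = 2.27e-04). Its values were all below the brightest Bacillus control. Nhp2 (1.14), the nucleolar protein Ncl (0.62), Wdr12 (0.59) and Tsr1 (0.40) were the others. The probe sets of Ncl ran from 0.011 to 0.62 and those of Wdr12 from -0.056 to 0.59. Those of Nhp2 ran from 0.53 to 1.14, and the calls of Ncl, Wdr12 and Nhp2 rest on 1 probe set each. Of the 5, Nop58 alone held its call in all 15 alternatives run, and the calls numbered 1 without implantation array 1 and 2 without implantation array 2 or 3. Among 74 mitochondrial ribosomal protein genes, which serve the ribosome of that organelle, 3 rose and 0 fell, 51 were positive, and the median was 0.086. These were Mrps22 (0.66), Mrps15 (0.54) and Mrpl13 (0.51), with 1 call left without implantation array 1 or 2. The probe sets of Mrps15 ran from 0.16 to 0.54 and those of Mrpl13 from 0.021 to 0.51, with 1 called in each. Of the 74 mitochondrial genes, 23 had means above the brightest Bacillus control. The difference between these lists and the Rpl and Rps genes was not tested. With scaling to the hybridisation controls the medians were 0.61 for assembly and 0.48 for mitochondrial genes, beside 0.35 for Rpl, 0.41 for Rps and 0.38 for all genes. With the control level as a covariate, assembly genes were at 0.23 with 3 called higher, and mitochondrial genes at 0.046 with 1 called higher. Rpl, Rps and all genes were then at -0.17, -0.14 and -0.029.

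**Figure D5:**
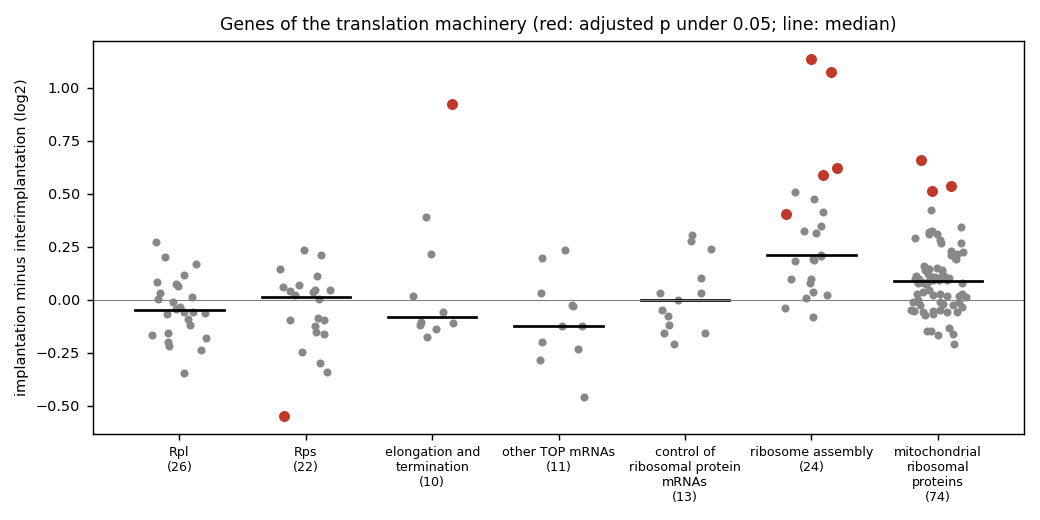
Difference (log2, y axis) of each measured gene of 7 lists of the translation machinery, with the number measured under each name; the line is the median and red points have an adjusted p under 0.05. Red points lie above 0 in elongation, ribosome assembly and mitochondrial ribosomal proteins, and the single red point of the Rps genes, Rps19, lies below.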

How the data were processed

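The authors deposited 1 log2 value per probe set and array, made with Partek 6.6 and RMA, per the submitters' processing notes. The log base and the order of steps are not given in the sources used here; base 2 was taken from the range of the values and from what RMA normally returns. Of 22690 probe sets, 64 controls were left out and 22626 tested with no filter on level. The platform annotation gave 1 symbol for 20380 probe sets, several for 691 and none for 1555.

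Groups were compared with limma 3.58.1 in R 4.3.3 (lmFit and eBayes, group as the only term, two-sided), adjusted over all probe sets. The fit was tested on simulated data. Members and lists were chosen with earlier results of these data known. The rule for named genes took every called member, the 5 Rpl and 5 Rps genes of smallest p in each direction, paralogs, the extremes of each role list, and from other lists the called genes and up to 2 of smallest p. The number of arrays limits the precision.

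Alternatives were a replicate block, other variance models, array weights, normalizations, the hybridisation controls, probe set choices and leaving out arrays. Same-numbered arrays correlated at -0.090, 0.071 and -0.028 after removing group means, and numbers were not taken as pairs. With 3 arrays per group, these correlations cannot decide whether arrays share an animal. The main fit treats the 6 arrays as independent, which would not hold if both sites were taken from the same 3 animals.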

Additional observations from a re-analysis of the deposited data

How the results depend on the processing

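No Rpl or Rps gene was called higher in any alternative run, and 1 Rpl gene, Rpl37a, was called lower, with repeated quantile normalization only. The number of Rps genes called lower was 1, and became 2 with array weights, with repeated quantile normalization and without probe sets below the median level. It became 0 after scaling to the hybridisation controls, after entering them as a covariate, and without probe sets shared by transcripts or genes, where Rps19 has no probe set left. Leaving out single arrays gave 0 to 2. The replicate number as a block left 1 Rps gene called (Rps19, adjusted p = 0.0345).

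With scaling to the controls the Rpl and Rps medians were 0.35 and 0.41 and that of all probe sets 0.38, with 752 probe sets higher and 13 lower in place of 284 and 238. With the hybridisation controls as a covariate the medians were -0.17 and -0.14 (-0.028 over all probe sets), with 77 higher and 130 lower. The Rps median was -0.091 without probe sets below the median level and -0.10 with the probe sets shared with pseudogenes, an alternative chosen after seeing the data. Over single arrays left out, the Rps median ran from -0.072 to 0.029 and the Rpl median from -0.10 to 0.0071. Lower calls over all probe sets were 363 with array weights. Without shared probe sets 138 were higher and 96 lower, and without single arrays 117 to 329 and 88 to 401. The called Rps24 probe set was at -0.56 with array weights, -0.61 with repeated quantile normalization, -0.18 with control scaling, -0.44 with the covariate, and -0.62 to -0.53 without single arrays. Control scaling takes the difference of the controls, -0.397, off every difference, so it moves all of them alike. The cause of the other changes was not tested.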
